A study of Mus musculus with 71 samples.

Results

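The 8 genes described here, Hmgcs1, Idi1, Fdps, Fdft1, Sqle, Lss, Cyp51 and Srebf2, encode enzymes of cholesterol synthesis and a transcription factor that controls them. They were chosen by symbol, and all 8 were found among the 15140 genes used of the deposited table. All 8 also passed the filter on low values in each fit. Hmgcs1 makes HMG-CoA near the start of the pathway. Idi1 and Fdps turn isopentenyl units into farnesyl diphosphate, the branch point to sterols, dolichol, ubiquinone and prenylated proteins. Fdft1, squalene synthase, takes farnesyl diphosphate into the sterol branch, Sqle oxidises squalene, Lss closes the rings to form lanosterol, and Cyp51 demethylates lanosterol. Srebf2 encodes SREBP2, a membrane-bound factor that is cut and moves to the nucleus when sterols are low, where it activates genes of the pathway. Growing mouse oocytes are known to make little cholesterol themselves and to depend on the surrounding granulosa cells for it.

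The series measured polyA RNA of mouse oocytes and oocyte-like cells with directional libraries, and 68 libraries in 33 groups were used. All groups are of the strain C57BL/6 X 129. In vitro oocytes grew in rOvaries, aggregates of PGCLCs (germ cells made from embryonic stem cells) and E12.5 female gonadal somatic cells, and were sorted as SC+ cells on day 11 or 13 of in vitro differentiation. They carry the reporters Blimp1-Venus and Stella-CFP in wild type and in knockouts of 19 genes alike. Knockouts of Lhx8, Sub1, Stat3 and Figla were collected on day 11, and those of Hes6, Tbpl2, Thap7, Ybx3, Ell3, Foxr1, Mef2b, Ccnk, Sfr1, Tcf25, Kdm1b, Nobox, Noto, Dynll1 and Sohlh1 on day 13. DIOLs are oocyte-like cells induced directly from embryonic stem cells of the line MGA8 with Shield1. Those labelled DIOLs.S were collected on days 1, 3, 5, 7 and 14, and those labelled DIOLs on days 5, 10, 15 and 25. What the S stands for is not given in the labels. MII DIOLs were grown with E12.5 female gonadal somatic cells and matured in culture. In vivo GV oocytes carry the same reporters as the in vitro oocytes and were incompetent or competent. Their columns are marked 2w for incompetent and 3w for competent oocytes, which reads as an age in weeks but is not explained in the labels. GV groups hold 3 libraries and all others 2, and an error beside a TPM is the SD over them and beside a log2 change the SE of the fit. Nothing in the labels ties replicates to separate cultures or animals, so p-values measure the spread between these libraries, which may be technical.

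Depth is not recorded in TPM (a share of the library scaled for gene length), so no counting error can be given. Libraries had 8011 to 10596 genes at 1 TPM or more. Summed over the genes used, TPM came to a share of 0.521 to 0.708 of the library total. This TPM share was unequal in some comparisons. It was 0.564 and 0.560 in DIOLs.S of day 7 and 0.668 in both of day 14. DIOLs had 0.678 in both libraries of day 5 and 0.596 and 0.591 on day 10. The Figla knockout had 0.708 in both, against 0.672 in both of wild type. The part of the unequal share in these comparisons was not tested. Replicates correlated at 0.967 to 0.997 across genes on the log scale, apart from the Sohlh1 knockout at 0.873. The table holds 12 of the 19 targeted genes. In their own knockouts 7 of the 12 were called lower, 3 passed the p-value with a change under the fold threshold, Sub1 among them with 464 ± 23.5 TPM in wild type and 330.2 ± 20.4 in the knockout, and 2 did not pass. Ccnk stood at 168 ± 5.64 TPM in wild type and at 171 ± 10.5 in the libraries labelled Ccnk knockout (SD, n = 2). Ell3, the other that did not pass, stood at 305 ± 23.5 TPM in wild type and at 105 ± 10.6 in its knockout. Figla, Nobox, Ybx3, Tcf25, Foxr1, Mef2b and Noto are not among the genes used, so their levels in their own knockouts could not be checked. Of 10 oocyte markers in the table, at least 9 were at 1 TPM or more in every library of wild type, DIOLs, GV and MII groups, against 7 to 10 in the knockouts. Fewer cells of a type and less RNA per cell cannot be told apart in these bulk libraries.

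The genes are placed by GENCODE M21 on GRCm38, which corresponds to the mm10 of the submitters' processing notes. Hmgcs1 is at chr13:119690379-119708260 and Idi1 at chr13:8885501-8892451, both on the plus strand. Fdps is at chr3:89093588-89101959 and Fdft1 at chr14:63145150-63179578, both on the minus strand. Sqle is at chr15:59315077-59331192, Srebf2 at chr15:82147181-82205379 and Lss at chr10:76531588-76557138, all on the plus strand, and Cyp51 is at chr5:4081145-4104746 on the minus strand. Of the 50-base words in the transcripts of Fdps, 26.2% also occur in other genes, against 17.7% for Idi1, 9.38% for Fdft1 and under 0.5% for each of the other 5, so the levels of these 3 genes are less certain. Exons of Akap9 on the opposite strand share 3.76% of the exonic bases of Cyp51, and exons of Ctsb share 18.3% of those of Fdft1. Whether counting used the strand is not given in the sources used here.

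The promoters are shown because Srebf2, Cyp51 and Lss had like profiles across the groups, described further on, while Hmgcs1 had its highest level elsewhere. RefSeq windows (GRCm38.p6) from 250 bases before to 50 after the start were matched for 5 of the 8 genes, which leaves Fdps, Fdft1 and Sqle. Of the window, the bases upstream of the earliest annotated start are printed, and capitals mark matches on either strand to the sterol regulatory element core TCACNCCAC, to CCAAT, the box bound by NF-Y, and to GGGCGG, the box bound by SP1.
Hmgcs1, chr13:119690101-119690350, plus strand: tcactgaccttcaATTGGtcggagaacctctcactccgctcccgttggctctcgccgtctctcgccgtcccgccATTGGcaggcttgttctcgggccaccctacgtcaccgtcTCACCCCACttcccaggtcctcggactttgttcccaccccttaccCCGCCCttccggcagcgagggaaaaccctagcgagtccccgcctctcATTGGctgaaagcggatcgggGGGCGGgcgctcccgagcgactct
Srebf2, chr15:82147019-82147180, plus strand: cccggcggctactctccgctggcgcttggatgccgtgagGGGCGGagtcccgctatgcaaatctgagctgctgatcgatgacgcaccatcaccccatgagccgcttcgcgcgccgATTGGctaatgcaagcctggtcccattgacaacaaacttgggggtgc
Cyp51, chr5:4104747-4104947, minus strand: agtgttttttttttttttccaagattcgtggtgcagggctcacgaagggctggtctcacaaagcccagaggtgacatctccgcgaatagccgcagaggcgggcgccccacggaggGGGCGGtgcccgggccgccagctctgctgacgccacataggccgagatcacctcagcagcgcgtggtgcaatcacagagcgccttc
Lss, chr10:76531355-76531587, plus strand: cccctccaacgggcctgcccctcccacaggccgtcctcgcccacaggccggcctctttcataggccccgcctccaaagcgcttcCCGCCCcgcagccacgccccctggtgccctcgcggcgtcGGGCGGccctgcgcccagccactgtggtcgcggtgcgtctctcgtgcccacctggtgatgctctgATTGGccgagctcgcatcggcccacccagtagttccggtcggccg
The sterol regulatory core was found in 1 of the 5 windows, that of Hmgcs1 at positions -137 to -129 from the start, and in 1.24% of all 32851 promoter windows of the same length, 300 bases. CCAAT was found in all 5 windows and in 37.4% of all. The CCAAT of Cyp51, at -29 to -25, lies past its printed bases, and the window of Idi1 is not printed. GGGCGG was also found in all 5, and in 35.7% of all. These matches describe letters in the windows and say nothing about binding.

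Across the 33 groups the 8 genes had their highest and lowest means in different places. Hmgcs1 ran from 57.3 ± 4.39 TPM in DIOLs.S of day 14 to 1062 ± 4.46 in MII DIOLs. Fdft1 ran from 14.5 ± 4.71 TPM in MII DIOLs to 503 ± 30.8 in DIOLs of day 25. Sqle, Lss and Srebf2 were highest in the Dynll1 knockout, at 190.4, 52.9 and 253 TPM, and Cyp51 was highest in the Stat3 knockout at 77.3 TPM. Cyp51 and Srebf2 were lowest in incompetent GV oocytes, at 1.70 and 7.65 TPM, and Fdps and Lss in competent GV oocytes, at 15.7 and 7.48 TPM. Fdps was highest in the Figla knockout at 163 TPM, and Sqle was lowest in DIOLs of day 5 at 23.2 TPM. Idi1 stood at 0 to 7.44 TPM in the 66 libraries other than MII DIOLs. Many neighbours in the order of the means had overlapping libraries, from 18 of 32 neighbouring pairs for Fdft1 and for Sqle to 27 of 32 for Lss, so many ranks do not differ beyond the spread. That holds at 3 of the ends too. For Sqle the Dynll1 knockout overlapped the Tcf25 knockout at 189 TPM, and for Lss competent GV oocytes and for Srebf2 incompetent ones overlapped DIOLs.S of day 14, at 7.59 and 11.0 TPM.

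Between day 11 and day 13 of wild-type culture Cyp51 fell, and the other 7 genes did not pass the threshold, an adjusted p under 0.05 (limma) with an absolute log2 change of at least 1. Of all 12306 genes tested 22.0% passed it. Cyp51 stood at 36.6 and 47.8 TPM on day 11 and at 14.5 and 14.0 TPM on day 13. The groups did not overlap, and the log2 change on log2(TPM + 1) was -1.49 ± 0.262 (SE, adjusted p = 4.91e-05). Srebf2 was at 61.6 and 66.4 TPM on day 11 and at 41.2 and 30.7 TPM on day 13. Its log2 change of -0.83 ± 0.143 (adjusted p = 3.93e-05) was under the fold threshold, and it was -1.04 and called without replicate 1 of day 13. Hmgcs1 had 202 and 185 TPM on day 11 against 134 and 134 on day 13 (-0.53 ± 0.077, adjusted p = 3.94e-06). Fdft1 had a higher level on day 13, at 186 and 190.5 TPM against 114 and 128 (0.64 ± 0.142, adjusted p = 0.00072). It passed the threshold when TPM were rescaled by the median of ratios (1.07).

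Among the 9 other sterol enzymes measured, 2 fell between these days. This list of 9 includes Ggps1, which extends farnesyl diphosphate outside the sterol branch and is also in the list of the isoprenoid branch. Acat2, which makes acetoacetyl-CoA, was among them (49.0 ± 13.3 to 20.3 ± 1.85 TPM, -1.21 ± 0.258), and neither was called after rescaling. Of 6 genes around SREBP control 1 fell, Insig2, which holds SREBPs in the endoplasmic reticulum (49.0 ± 1.27 to 16.4 ± 0.948 TPM). Of 10 sterol transport genes 4 fell and none rose, among them Lipa, the lysosomal esterase that frees cholesterol (13.3 ± 0.198 to 0.32 ± 0.085 TPM, -3.43 ± 0.575). The summed level of 15 granulosa and gonadal markers was 973 to 1031 TPM on day 11 and 44.8 to 46.6 TPM on day 13, with Fshr at 0 in both day 11 libraries and Cyp17a1 at 0 in both day 13 libraries. The 10 stromal and endothelial markers summed to 89.2 to 123 TPM on day 11 and 11.2 to 18.3 on day 13, and the 10 oocyte markers to 9036 to 9225 and 59189 to 60642 TPM. Of 5 markers of pluripotent cells Klf4 fell (-3.88 ± 0.552) while Esrrb, at 2.20 ± 2.36 and 15.6 ± 1.61 TPM, and Tbx3, at 0 and 1.54 ± 0.177 TPM, were called higher. The part of each in the changes was not tested.

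**Figure D1:**
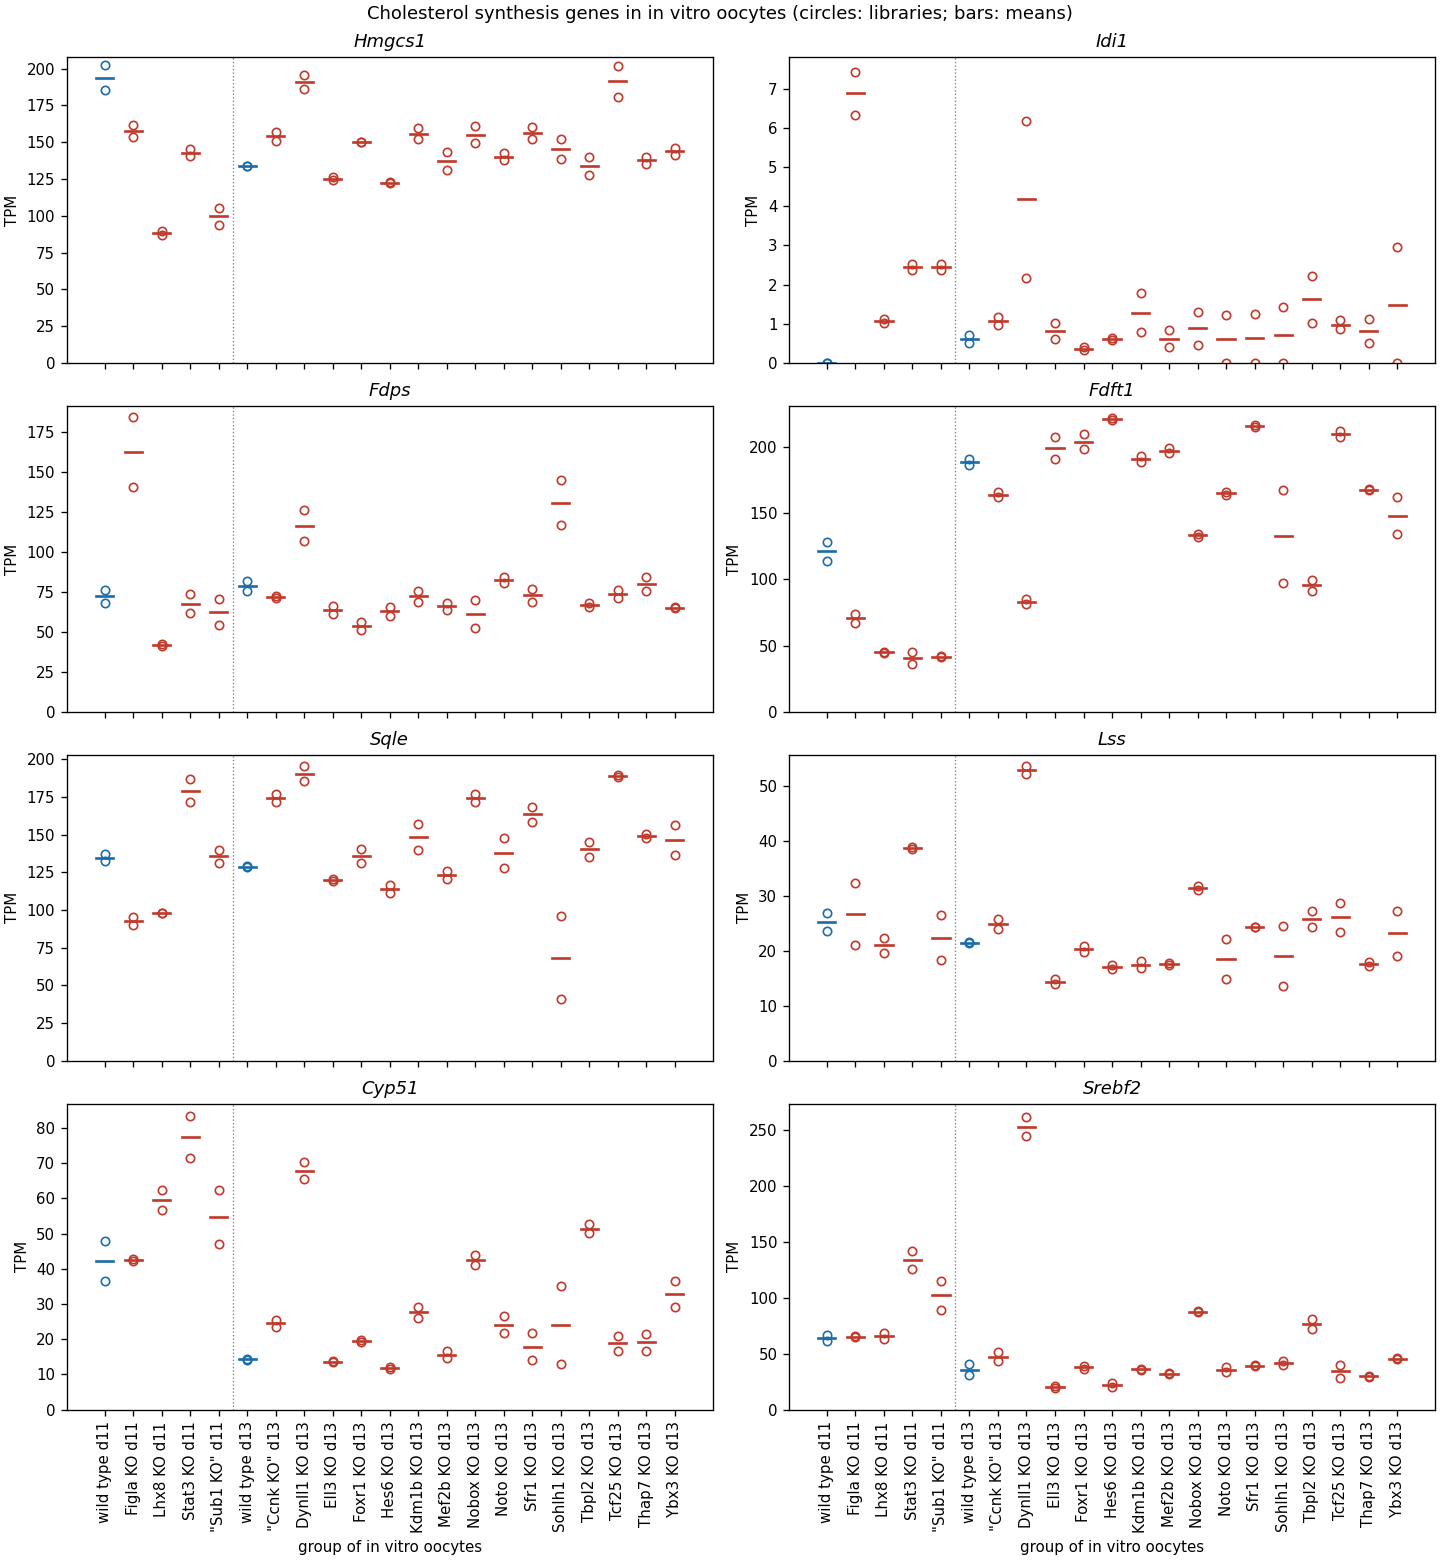
TPM of the 8 genes (vertical axes, each from 0) in in vitro oocytes of wild type (blue) and of 19 knockouts (red, with quotation marks on the libraries labelled Ccnk and Sub1 knockout), with a circle for each library, a bar for each mean and a dotted line between day 11 and day 13. Srebf2 stands at 262 and 245 TPM in the Dynll1 knockout, and Fdft1 lies below both wild-type libraries in all 4 day 11 knockouts.

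In the 4 knockouts of day 11, Fdft1 fell in 3 and Idi1 was called higher in 3, while Cyp51, Sqle and Lss passed in none. These 4 comparisons share the 2 wild-type libraries of day 11. Fdft1 had 114 and 128 TPM in wild type. It had 45.5 and 44.2 TPM in the Lhx8 knockout (-1.41 ± 0.142, adjusted p = 7.8e-09), where 21.9% of all genes passed. In the libraries labelled Sub1 knockout, where 22.8% of all genes passed, it had 41.1 and 42.2 TPM (-1.52 ± 0.142, adjusted p = 2.83e-09). No knockout library reached the lower wild-type library. In the Stat3 knockout, where 27.3% of all genes passed, Fdft1 had 35.8 and 45.2 TPM (-1.56 ± 0.142, adjusted p = 8.64e-10). In the Figla knockout, where 28.1% of all genes passed, it had 67.1 and 74.0 TPM, a log2 change of -0.77 ± 0.142 that was called only after rescaling (-1.03). Ctsb, which overlaps Fdft1, was at 156 ± 1.67 TPM in wild type and 106 ± 12.1 in the Stat3 knockout, and it rose in the Sub1-labelled libraries (2.19 ± 0.388), where Fdft1 fell.

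Idi1 was at 0 in the wild-type libraries of day 11, so no fold is given. It was at 6.89 ± 0.785 TPM in the Figla knockout (adjusted p = 3.19e-05), at 2.46 ± 0.106 in the Sub1-labelled libraries (adjusted p = 0.00652) and at 2.45 ± 0.099 in the Stat3 knockout (adjusted p = 0.00569). Its 1.01 and 1.13 TPM in the Lhx8 knockout passed only with a pseudocount of 0.1. Hmgcs1 fell in the Lhx8 knockout to 89.6 and 87.3 TPM against 202 and 185 in wild type (-1.12 ± 0.077, adjusted p = 5.55e-12). In the Sub1-labelled libraries it was at 94.0 and 105 TPM (-0.95 ± 0.077), and it was called after rescaling (-1.06), without replicate 2 of wild type (-1.02) and without replicate 2 of those libraries (-1.03). Fdps rose in the Figla knockout to 141 and 184 TPM against 76.6 and 68.1 (1.15 ± 0.144, adjusted p = 3.24e-07). That call ended after rescaling (0.89) and without replicate 2 of the knockout (0.95).

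Srebf2 rose in the Stat3 knockout to 126 and 142 TPM against 61.6 and 66.4 in wild type (1.05 ± 0.143, adjusted p = 8.78e-07). The call ended after rescaling (0.90), without wild-type replicate 1 (0.999) and without knockout replicate 2 (0.97). Cyp51 was at 71.4 and 83.2 TPM there against 36.6 and 47.8, a log2 change of 0.87 ± 0.262 that was called without wild-type replicate 2 (1.05). Akap9, on its opposite strand, rose in the same libraries from 25.5 ± 2.55 to 91.9 ± 3.76 TPM (1.81 ± 0.156). Of 9 other sterol enzymes 3 rose in the Stat3 knockout and 1 fell. Acat2 (1.59 ± 0.258) and Lbr, a sterol reductase of the nuclear membrane (1.65 ± 0.128), rose and Pmvk, phosphomevalonate kinase, fell (-1.71 ± 0.188).

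Insig1, which like Insig2 retains SREBPs and is itself an SREBP target, fell in all 4 day 11 knockouts. It stood at 397 ± 1.89 TPM in wild type, 111 ± 19.0 in the Sub1-labelled libraries (-1.84 ± 0.121) and 189 ± 16.1 in the Figla knockout (-1.07 ± 0.121), with 120.2 and 137 in the Stat3 and Lhx8 knockouts. Without replicate 2 of the Figla knockout the change there was -0.98 and not called. Summed granulosa markers were 790.5 to 818 TPM in the Sub1-labelled libraries, 895 to 918 in the Stat3 knockout, 982 to 1011 in the Figla knockout and 1530.5 to 1553 in the Lhx8 knockout. Summed blood and immune markers were 28.0 to 45.2 TPM in wild type, 43.9 to 51.1 in the Stat3, 401 to 433 in the Lhx8 and 456 to 475 in the Figla knockout, and 3090.3 to 3135 in the Sub1-labelled libraries. In wild type 8 of these 12 markers were at 0. Summed stromal and endothelial markers were 89.2 to 123 TPM in wild type, 161 to 195 in the Sub1-labelled libraries, 243 to 253 in the Stat3, 301 to 311 in the Lhx8 and 388 to 417 in the Figla knockout. The pluripotency factor Sox2, at 1.69 ± 2.39 TPM in wild type, was called higher in all 4, at 11.9 ± 0.969 TPM in the Lhx8 knockout, 13.9 ± 0.233 in the Sub1-labelled libraries, 28.7 ± 4.48 in the Figla and 37.6 ± 2.05 in the Stat3 knockout. The 5 markers of pluripotent cells summed to 48.0 to 54.5 TPM in wild type and to 55.6 to 100.3 over the 4. Summed oocyte markers were 9036 to 9225 TPM in wild type and between 1440.4 and 2457 over these 4 knockouts. The part of each in these results was not tested.

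On day 13 the Dynll1 knockout held 5 of the 11 member calls found over 15 knockouts. Of the 11 calls 4 were for Cyp51, 3 for Srebf2 and 1 each for Idi1, Fdft1, Sqle and Lss. All 15 comparisons share the 2 wild-type libraries of day 13. Dynll1 encodes a light chain of dynein that is also found in other complexes. Its own level was 413 ± 16.5 TPM in wild type and 22.9 ± 2.29 in the knockout. In this knockout 4 members rose and 1 fell, where 48.2% of all genes passed, 37.7% higher and 10.4% lower. Srebf2 rose from 41.2 and 30.7 TPM in wild type to 262 and 245 (2.80 ± 0.143, adjusted p = 6e-15). Cyp51 rose from 14.5 and 14.0 TPM to 65.4 and 70.4 (2.17 ± 0.262, adjusted p = 6.67e-08). Lss rose from 21.4 and 21.7 TPM to 52.1 and 53.7 (1.26 ± 0.222, adjusted p = 2.01e-05). Each knockout library lay above both wild-type libraries for these 3 genes. Fdft1 fell from 186 and 190.5 TPM to 84.9 and 81.5 (-1.17 ± 0.142, adjusted p = 7.34e-08), with no overlap.

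Idi1 rose in the Dynll1 knockout from 0.5 and 0.72 TPM to 6.19 and 2.16 (1.57 ± 0.514, adjusted p = 0.00959). This low gene lost its call without replicate 1 of wild type (adjusted p = 0.0534), without replicate 1 of the knockout (0.175) and with a pseudocount of 0.1 (0.108). Hmgcs1 had 186 and 196 TPM against 134 and 134, Sqle 186 and 195 against 129 and 128 and Fdps 126 and 107 against 75.5 and 82.0, all under the fold threshold. The median log2 change was 0.91 over the 8 genes and 0.69 over all genes tested. After rescaling, which moved the median of all genes by -0.59, Srebf2, Cyp51, Idi1 and Fdft1 kept their calls and Lss lost its call (0.63).

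Of 9 other sterol enzymes 5 rose in the Dynll1 knockout and 2 fell. Acat2 rose from 20.3 ± 1.85 to 117 ± 13.5 TPM (2.46 ± 0.258), while Tm7sf2, a sterol reductase, fell from 201 ± 13.9 to 37.3 ± 0.948 (-2.40 ± 0.22). After rescaling 4 of these 7 kept their calls. Of 6 genes around SREBP control 4 rose and 1 fell. Mylip, a ubiquitin ligase induced by sterols, rose from 4.38 ± 1.67 to 29.5 ± 2.29 TPM (2.54 ± 0.685), and Insig1 fell from 673 ± 11.7 to 202 ± 15.5 (-1.74 ± 0.121). Of 10 sterol transport genes 5 rose and none fell, among them Lipa (0.32 ± 0.085 to 21.3 ± 2.33 TPM) and the exporters Abcg1 (0.595 ± 0.346 to 10.1 ± 1.08) and Abca1 (2.84 ± 0.75 to 20.6 ± 1.16). Of 9 genes of the isoprenoid branch 6 rose and none fell, and 4 of the 6 were not called after rescaling. Ggps1 is counted here and among the other sterol enzymes, so the 2 lists are not separate. Summed granulosa markers were 349.8 to 393 TPM in this knockout, with Fshr at 0, against 44.8 to 46.6 in wild type. Summed immune markers were 295 to 297 TPM against 68.9 to 86.0, and summed oocyte markers 2412 to 2439 against 59189 to 60642. Stromal and endothelial markers summed to 113 to 114 TPM against 11.2 to 18.3. Markers of pluripotent cells summed to 210.4 to 217 TPM against 29.4 to 31.3, and 3 of the 5 rose. Sox2 rose from 0.06 ± 0.085 to 96.0 ± 3.10 TPM (6.52 ± 0.43), Klf4 from 1.71 ± 0.29 to 55.6 ± 4.96 (4.39 ± 0.552) and Esrrb from 15.6 ± 1.61 to 37.5 ± 1.34 (1.21 ± 0.369). The part of these markers' cells in the result was not tested.

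Cyp51 rose in 4 of the 15 day 13 knockouts and Srebf2 in 3. In the Tbpl2 knockout, where 29.2% of all genes passed, Cyp51 had 52.7 and 50.1 TPM (1.78 ± 0.262, adjusted p = 3.26e-06) and Srebf2 72.5 and 81.1 (1.09 ± 0.143, adjusted p = 6.24e-07). In the Nobox knockout, where 38.5% passed, Cyp51 had 44.0 and 41.0 TPM (1.51 ± 0.262, adjusted p = 2.18e-05) and Srebf2 87.1 and 88.5 (1.28 ± 0.143, adjusted p = 2.85e-08). In the Ybx3 knockout, where 17.9% passed, Cyp51 had 29.2 and 36.5 TPM (1.14 ± 0.262, adjusted p = 0.00125). All of these libraries lay above the wild-type libraries, at 14.5 and 14.0 TPM for Cyp51 and 41.2 and 30.7 for Srebf2. After rescaling, Cyp51 kept its call in the Tbpl2 knockout and lost it in the Nobox (0.95) and Ybx3 (0.82) knockouts. Srebf2 lost its call in the Tbpl2 (0.66) and Nobox (0.71) knockouts. Without replicate 2 of the Ybx3 knockout its Cyp51 change was 0.99, and without wild-type replicate 2 the Srebf2 change in the Tbpl2 knockout was 0.88, neither called.

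Fdft1 had 99.6 and 91.4 TPM in the Tbpl2 knockout and 135 and 132 in the Nobox knockout against 186 and 190.5 in wild type, and it was called lower in both only after rescaling (-1.41 and -1.08) or, in the Tbpl2 knockout, without its replicate 1 (-1.04). Insig1 fell in the Tbpl2 knockout to 233 ± 12.5 TPM (-1.52 ± 0.121) and in the Nobox knockout to 163 ± 7.49 (-2.04 ± 0.121). Of 10 sterol transport genes 7 rose and none fell in the Nobox knockout, and 4 rose in the Tbpl2 knockout. Summed granulosa markers were 879.5 to 966 TPM in the Tbpl2, 716 to 734 in the Nobox and 1345 to 1396 in the Ybx3 knockout, against 44.8 to 46.6 in wild type. Oocyte markers summed to 11978 to 12003, 3348 to 3355 and 33370.5 to 34062 TPM in the same order, against 59189 to 60642. Stromal and endothelial markers summed to 347 to 348, 178 to 183 and 182 to 192 TPM against 11.2 to 18.3. Immune markers summed to 489 to 511 TPM in the Ybx3, 33.7 to 35.3 in the Tbpl2 and 40.1 to 61.1 in the Nobox knockout, against 68.9 to 86.0 in wild type. Most of the wild-type sum was C1qb, at a mean of 73.5 TPM, with 8 of 12 markers at 0. In the Tbpl2 knockout C1qb was at 14.9 TPM, and 5 to 6 markers were at 1 TPM or more against 2 in wild type. In the Nobox knockout Cd68 was highest at 41.5 TPM, with 9 markers at 0. Sox2 was called higher in the Tbpl2 (5.10 ± 0.43) and Nobox (5.28 ± 0.43) knockouts, and Klf4 in all 3. Akap9 rose in these 3 knockouts as well, from 13.5 ± 0.29 TPM to 37.2 ± 4.84, 37.2 ± 7.61 and 31.6 ± 3.30, and in the Dynll1 knockout to 34.2 ± 0.566. Its part in the Cyp51 values, and that of the cells these markers stand for, was not tested.

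Sqle was the sole member called in the Sohlh1 knockout, where 35.7% of all genes passed. It had 95.7 and 40.8 TPM against 129 and 128 in wild type (-1.03 ± 0.188, adjusted p = 4.49e-05). Without replicate 2 its log2 change was -0.42 and Cyp51, at 35.2 and 12.9 TPM, was called higher instead (1.25). Replicate 2 also held 3625 TPM of summed immune markers against 117 in replicate 1, and 2169 TPM of stromal and endothelial markers against 209. Oocyte markers summed to 2424 TPM in replicate 1 and 1667 in replicate 2, against 59189 to 60642 in wild type. Markers of pluripotent cells summed to 19.3 and 133 TPM against 29.4 to 31.3. The part of each in the Sqle and Cyp51 values was not tested. In the remaining 10 knockouts of day 13 no member was called by limma, and of the 80 member values in them 17 had an unadjusted p under 0.05 and 5 an adjusted one. The share of all genes that passed was 0.114% for Ell3, 0.504% for Tcf25, 0.593% for Hes6, 1.08% for Mef2b, 1.24% for Sfr1, 1.88% for Foxr1, 2.23% for Noto, 2.74% for Thap7, 3.19% for Kdm1b and 6.14% for the libraries labelled Ccnk knockout. Hmgcs1 kept within a log2 change of -0.13 to 0.51 over all 15 knockouts of day 13, and Fdps within -0.55 to 0.72.

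**Figure D2:**
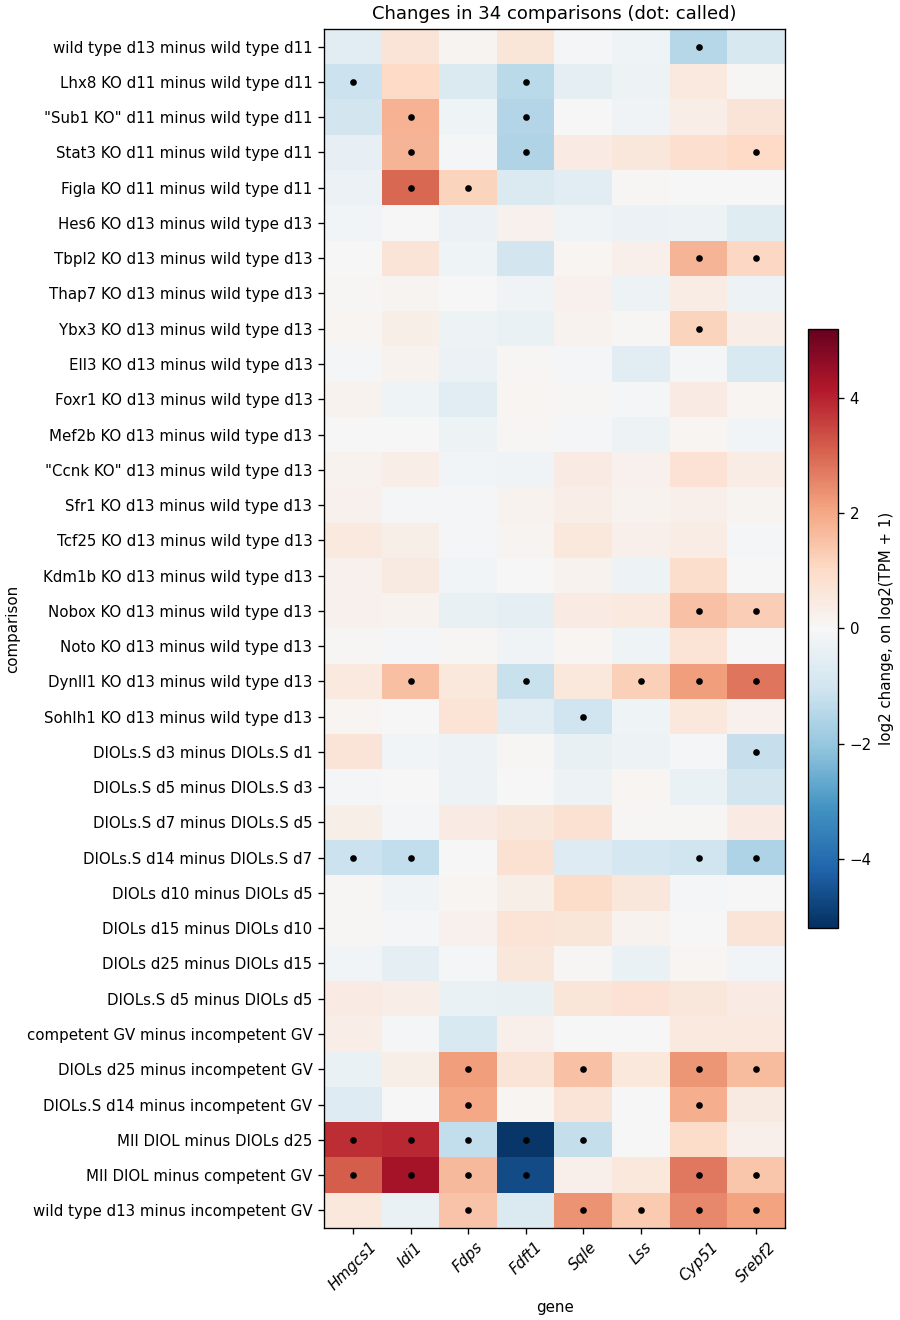
Log2 change on log2(TPM + 1) of the 8 genes (columns) in 34 comparisons (rows, each a group against its control), from lower (blue) to higher (red), with a dot where a change was called. Among the 20 calls in knockouts 14 are higher and 6 lower. Over all genes, too, each knockout had more higher than lower calls, such as 4642 and 1284 in the Dynll1 knockout. The deepest colours are those of Hmgcs1, Idi1 and Fdft1 in MII DIOLs.

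In DIOLs.S the regulator Srebf2 fell early and again late, and in DIOLs Fdft1 and Sqle had higher levels at later days without passing the threshold in any step. Srebf2 had 118 and 112 TPM on day 1 and 48.9 and 50.3 on day 3 (-1.20 ± 0.187, adjusted p = 2.45e-05), the sole member called in a step where 20.9% of all genes passed. In the same step markers of pluripotent cells summed to 270.5 to 272 TPM on day 1 and 75.6 to 88.6 on day 3, with Sox2 at 98.4 ± 2.21 and 0.48 ± 0.566 TPM (-6.12 ± 0.363) and Esrrb and Tbx3 also called lower. Blood and immune markers summed to 437 to 449 TPM on day 1, most of it Spp1, and to 48.7 to 53.2 on day 3, and oocyte markers to 415 to 467 and 4255 to 4470.4. The part of these cells in the fall of Srebf2 was not tested. It was at 23.6 and 27.2 TPM on day 5 and 45.0 and 27.0 on day 7. Limma called no member in either of these steps, where 7.95% and 8.06% of all genes passed and 1 and 5 members had an unadjusted p under 0.05, though Srebf2 was called on day 5 without its replicate 2 (-1.04) and Sqle on day 7 without its replicate 2 (1.07). From day 7 to day 14, 4 members fell and none rose, where 40.5% of all genes passed, 7.78% higher and 32.8% lower. Srebf2 fell to 13.1 and 8.92 TPM (-1.60 ± 0.187, adjusted p = 2.89e-07), and Hmgcs1 from 142 and 108 to 54.2 and 60.4 TPM (-1.10 ± 0.118, adjusted p = 9.31e-08). Cyp51 fell from 23.7 and 16.3 to 8.82 and 9.23 TPM (-1.04 ± 0.221, adjusted p = 0.000319), and Idi1 from 3.47 and 4.29 to 1.36 and 0.74 (-1.26 ± 0.296, adjusted p = 0.000829). No library of day 14 reached those of day 7 for these 4 genes.

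The replicates of day 7 stood apart. Replicate 1 held 2289 TPM of summed granulosa markers and replicate 2 held 537, against 59.7 to 92.9 on day 14, and without replicate 1 Hmgcs1 (-0.90) and Cyp51 (-0.79) were not called. Stromal and endothelial markers summed to 226 TPM in replicate 1 and 46.0 in replicate 2, against 12.3 to 20.4 on day 14, and oocyte markers to 20122 to 26137 TPM on day 7 and 84414 to 87903 on day 14. The part of these cells was not tested. After rescaling, which moved the median of all genes by 0.46, Srebf2 alone of the 4 kept its call, with Hmgcs1 at -0.61, Idi1 at -0.93 and Cyp51 at -0.58. Fdft1 was then called higher (1.30), with 171 and 209.8 TPM on day 7 and 341 and 323 on day 14. Of 9 other sterol enzymes 6 fell in this step and none rose, among them Acat2 (32.8 ± 8.76 to 10.1 ± 3.64 TPM, -1.62 ± 0.207) and Ggps1, also in the isoprenoid list (-1.59 ± 0.255). After rescaling 4 of the 6 were not called. The median log2 change was -0.98 over the 8 genes and -0.51 over all genes tested.

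In DIOLs no member was called between days 5 and 10, 10 and 15 or 15 and 25, in steps where 23.1%, 3.64% and 7.57% of all genes passed and 3, 3 and 1 members had an unadjusted p under 0.05 in limma. Fdft1 had 162 ± 3.49 TPM on day 5, 203 ± 2.62 on day 10, 334 ± 5.72 on day 15 and 503 ± 30.8 on day 25 (SD, n = 2). Its libraries did not overlap between neighbouring days, and the steps from day 10 on had log2 changes of 0.72 ± 0.133 and 0.59 ± 0.133 with adjusted p of 0.00096 and 0.00246. Sqle had 23.2 ± 0.728 TPM on day 5, 45.9 ± 2.05 on day 10, 72.2 ± 5.78 on day 15 and 74.8 ± 0.75 on day 25. The step from day 5 to 10 was 0.95 ± 0.133 (adjusted p = 6.83e-06) and was called after rescaling (1.24). Stromal and endothelial markers summed to 375.8 to 376 TPM on day 5 and 6.54 to 13.0 on day 10. Blood and immune markers summed to 631 to 655 TPM, most of it Spp1, and to 60.2 to 63.3. Oocyte markers rose from 10684 to 10772 TPM on day 5 to 41049 to 41089 on day 10 and 61468 to 64346 on day 15. The part of these cells in the Fdft1 and Sqle values was not tested. Cyp51 lay between 11.2 and 13.0 TPM in all 8 libraries, and Hmgcs1 between 71.7 and 84.8. On day 5, which both kinds of DIOLs share, no member was called between them, where 11.9% of all genes passed, though 6 had an unadjusted p under 0.05 in limma. Sqle was at 36.3 and 37.7 TPM in DIOLs.S against 22.7 and 23.8 in DIOLs (0.65 ± 0.133, adjusted p = 0.000709). In DIOLs.S of that day stromal and endothelial markers summed to 73.7 to 82.8 TPM and blood and immune markers to 29.8 to 38.4. Granulosa markers summed to 403 TPM in DIOLs.S against 39.7 to 44.5 in DIOLs. The TPM share of the genes used was 0.542 and 0.535 in these DIOLs.S and 0.678 in both DIOLs libraries. The part of these cells and of this share in the difference was not tested.

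**Figure D3:**
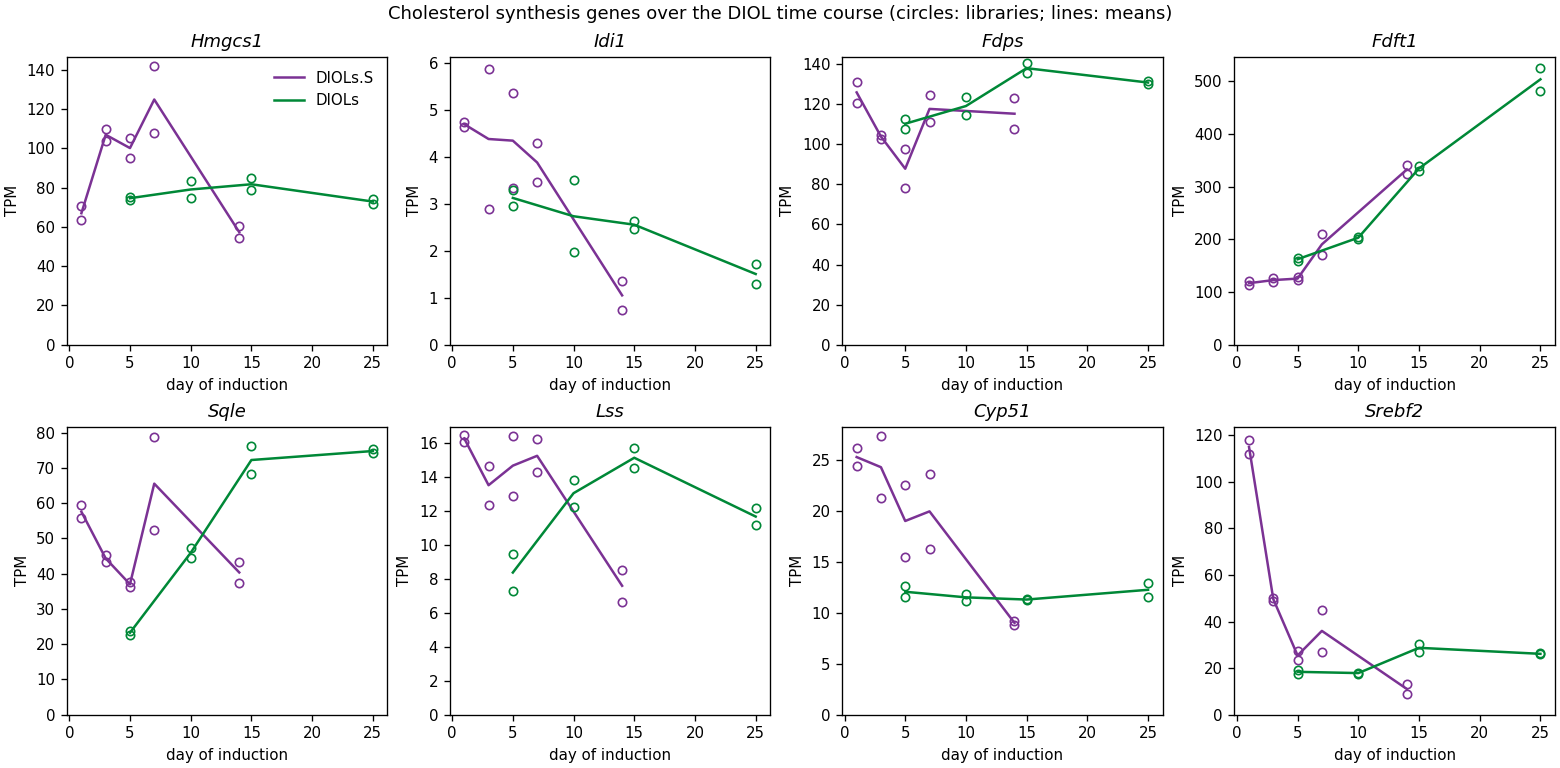
TPM of the 8 genes (vertical axes, each from 0) against the day of induction in DIOLs.S (purple) and DIOLs (green), with a circle for each library and lines through the means. Fdft1 climbs to 482 and 525 TPM on day 25 of DIOLs, while Srebf2 drops from 118 and 112 TPM on day 1 of DIOLs.S.

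GV oocytes from ovaries had low levels of Lss, Cyp51 and Srebf2 and high levels of Fdft1. Fdft1 had 329, 327 and 287 TPM in incompetent and 373, 373 and 391 TPM in competent oocytes. Cyp51 had 2.08, 1.70 and 1.32 TPM in incompetent and 2.62, 2.77 and 3.06 in competent oocytes. Lss had 8.46, 7.46 and 7.19 TPM and Srebf2 9.26, 6.98 and 6.72 TPM in incompetent oocytes. The stages also differ in the mark 2w or 3w, so the stage and what this mark stands for cannot be told apart. No member was called between them, where 9.96% of all genes passed, though 5 had an unadjusted p under 0.05 in limma. Fdps was at 28.0 ± 3.03 TPM in incompetent and 15.7 ± 0.998 in competent oocytes (n = 3), a log2 change of -0.79 ± 0.132 (adjusted p = 5.77e-05) under the fold threshold, with no overlap. Of 9 other sterol enzymes 3 were lower and none higher in competent oocytes. Pmvk fell from 24.4 ± 0.905 to 3.43 ± 0.667 TPM (-2.53 ± 0.17), Tm7sf2 from 23.2 ± 1.72 to 9.52 ± 0.327 (-1.20 ± 0.146) and Mvk, the kinase before Pmvk, from 4.50 ± 1.36 to 1.49 ± 0.24 (-1.11 ± 0.26). The Mvk call ended without replicate 1 of the incompetent oocytes (-0.98).

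Against incompetent GV oocytes, 5 members were called higher in wild-type in vitro oocytes of day 13, 4 in DIOLs of day 25 and 2 in DIOLs.S of day 14. None was called lower. These comparisons share the 3 GV libraries. At any size of change 7, 7 and 5 members had an adjusted p under 0.05 in limma. Uncalled differences went both ways. Fdft1, at 287 to 329 TPM in GV oocytes, was at 186 and 190.5 in wild type and 482 and 525 in DIOLs. Hmgcs1 was at 54.2 and 60.4 TPM in DIOLs.S against 80.7 to 105. In the wild-type comparison 33.5% of all genes passed, 18.4% higher and 15.2% lower. Sqle was at 129 ± 0.502 TPM against 25.0 ± 0.797 (2.32 ± 0.156, adjusted p = 1.75e-16). Wild-type oocytes also exceeded GV oocytes in Cyp51 (2.51 ± 0.229), Srebf2 (2.09 ± 0.151), Fdps (1.46 ± 0.142) and Lss (1.37 ± 0.183). In the comparison of DIOLs of day 25, 26.3% of all genes passed, 12.8% higher and 13.5% lower. They had 130.0 and 132 TPM of Fdps against 28.7, 24.7 and 30.6 (2.19 ± 0.147, adjusted p = 1.49e-10), and 75.3 and 74.2 TPM of Sqle (1.54 ± 0.121). Cyp51 was at 11.6 and 13.0 TPM in them (2.31 ± 0.202) and Srebf2 at 26.4 and 25.9 (1.66 ± 0.171). DIOLs.S of day 14, where 31.1% passed, 10.9% higher and 20.2% lower, were higher in Fdps (2.01 ± 0.147) and Cyp51 (1.90 ± 0.202).

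In the comparison of wild type with incompetent GV oocytes 5 of 9 other sterol enzymes were higher and none lower, among them Tm7sf2 at 201 ± 13.9 against 23.2 ± 1.72 TPM (3.06 ± 0.192). Insig1 was higher, at 673 ± 11.7 against 138 ± 24.1 TPM, and Npc1, which releases cholesterol from lysosomes, was lower at 32.7 ± 0.113 against 120.0 ± 3.24. Summed granulosa markers were 152 to 169 TPM in incompetent and 173 to 264 in competent oocytes, above wild-type in vitro oocytes of day 13 at 44.8 to 46.6, with Esr2 the most abundant in both GV groups and Cyp17a1 at 0 in the incompetent one. Oocyte markers summed to 42040.1 to 47483 TPM in incompetent and 29838 to 31451 in competent oocytes, against 59189 to 60642 in wild type. Markers of pluripotent cells summed to 167 to 172 and 77.5 to 83.3 TPM, most of it Esrrb, against 29.4 to 31.3. The part of each in these differences was not tested.

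**Figure D4:**
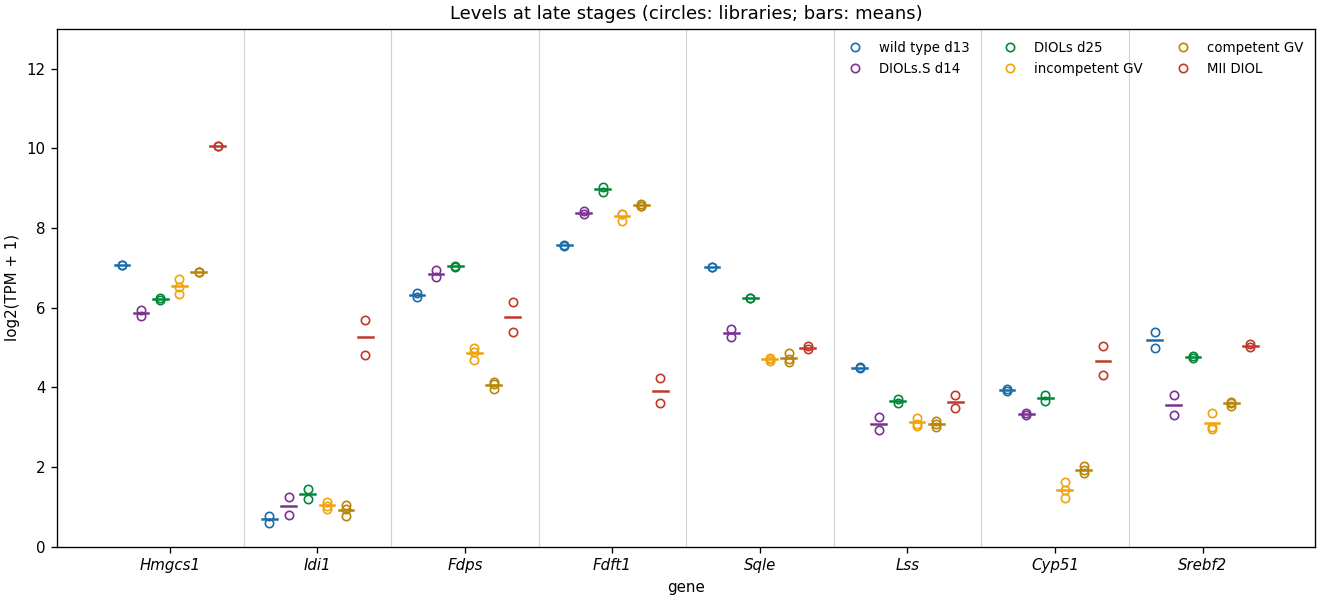
Levels on log2(TPM + 1) of the 8 genes (horizontal axis) at 6 late stages, with a circle for each library and a bar for each mean. Hmgcs1 and Idi1 are highest and Fdft1 lowest in MII DIOLs, and Cyp51 is lowest in the GV oocytes at 1.32 to 3.06 TPM.

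In MII DIOLs Hmgcs1 and Idi1 rose and Fdft1 fell. Against DIOLs of day 25, where 57.6% of all genes passed, 19.8% higher and 37.8% lower, 2 members rose and 3 fell. Hmgcs1 rose from 71.7 and 74.2 TPM to 1059 and 1065 (3.85 ± 0.118, adjusted p = 5.99e-17). Idi1 rose from 1.29 and 1.72 TPM to 27.2 and 50.9 (3.94 ± 0.296, adjusted p = 1.27e-10). Fdft1 fell from 482 and 525 TPM to 11.2 and 17.8 (-5.06 ± 0.133, adjusted p = 5.83e-18). None of the 3 overlapped between the groups. Fdps fell from 130.0 and 132 TPM to 41.2 and 69.4 (-1.28 ± 0.161, adjusted p = 4.04e-07), and Sqle from 75.3 and 74.2 TPM to 30.3 and 31.8 (-1.24 ± 0.133, adjusted p = 3.53e-08). Rescaling moved the median of all genes by 0.84 here. After it Fdps (-0.31) and Sqle (-0.28) were not called, while Cyp51 (1.88) and Srebf2 (1.24) were called higher. Without MII replicate 1 Fdps was not called (-0.91) and Cyp51 was (1.30), as it also was without DIOLs replicate 2 (1.01). Ctsb, which overlaps Fdft1, fell from 119 ± 5.37 to 20.7 ± 10.3 TPM (-2.56 ± 0.185), and its part in the Fdft1 value was not tested. MII DIOLs were both grown with gonadal somatic cells and matured, and the part of each in these changes was not tested. The libraries measured polyA RNA only, so these TPM need not follow the whole amount of a transcript.

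Against competent GV oocytes, where 50.2% of all genes passed, 18.3% higher and 31.9% lower, 5 members were higher in MII DIOLs and 1 lower. Hmgcs1 had 1059 and 1065 TPM against 118, 118 and 118 (3.16 ± 0.108, adjusted p = 3.57e-16), and Idi1 27.2 and 50.9 against 0.92, 1.06 and 0.71 (4.34 ± 0.27, adjusted p = 6.68e-12). Cyp51 was higher at 18.7 and 31.6 TPM against 2.62, 2.77 and 3.06 (2.73 ± 0.202), as were Fdps (1.71 ± 0.147) and Srebf2 (1.45 ± 0.171). Fdft1 was lower, at 11.2 and 17.8 TPM against 373, 373 and 391 (-4.65 ± 0.122, adjusted p = 5.64e-18). After rescaling Sqle (1.13) and Lss (1.39) were called higher as well. Both MII comparisons share the 2 MII libraries, whose values differ for Idi1, Fdps and Cyp51 and nearly coincide for Hmgcs1. Summed granulosa markers were 528 to 962 TPM in the MII libraries, with Gata4 highest and Cyp17a1 at 0, against 42.1 to 46.9 in DIOLs of day 25. Oocyte markers summed to 21103 to 21679 TPM against 60665 to 60886, and stromal and endothelial ones to 107 to 115 against 24.1 to 47.1, most of it Pecam1 in MII DIOLs. Of the markers of pluripotent cells Sox2 (2.43 ± 0.363), Klf4 (2.33 ± 0.214) and Tbx3 (3.20 ± 0.225) rose and Tfcp2l1 fell (-1.64 ± 0.175). The part of these cells was not tested.

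Other genes of the pathway also moved in both directions in MII DIOLs. Against DIOLs of day 25, 3 of 9 other sterol enzymes rose and 5 fell. Lbr rose from 47.5 ± 1.53 to 1057 ± 62.9 TPM (4.45 ± 0.139), while Pmvk fell from 46.7 ± 6.34 to 5.16 ± 2.69 (-3.02 ± 0.208). Of the 5 that fell 3 were not called after rescaling, and Pmvk kept its call. Of 6 genes around SREBP control 2 rose and 2 fell, with Stard4, a sterol carrier, rising from 18.5 ± 1.15 to 201 ± 10.5 TPM (3.37 ± 0.113) and Mylip falling from 14.4 ± 3.74 to 1.97 ± 0.396 (-2.36 ± 0.164). Of 10 sterol transport genes 4 rose and 2 fell, and Npc1 rose from 31.5 ± 1.49 to 399 ± 24.1 TPM (3.62 ± 0.0974). In the isoprenoid branch 3 of 9 rose and 3 fell. Dhdds and Nus1 encode the subunits of the prenyltransferase that makes the dolichol chain: Dhdds fell from 87.1 ± 4.79 to 1.95 ± 0.191 TPM (-4.90 ± 0.111) and Nus1 rose from 60.3 ± 4.14 to 459.7 ± 8.86 (2.91 ± 0.111).

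Within the 8 genes, Cyp51 and Srebf2 had the most similar profiles, and Fdft1 ran against them. Over the means of the 33 groups on log2(TPM + 1), Pearson's r was 0.90 for Cyp51 with Srebf2, 0.86 for Lss with Srebf2 and 0.85 for Sqle with Lss. Over the 21 in vitro groups these were 0.91, 0.89 and 0.52, so the last was weaker there. For Fdft1 with Cyp51 it was -0.71, or -0.83 without MII DIOLs and -0.88 over the 21 in vitro groups. The groups share cell lines, library preparation and TPM scaling, so these are descriptions with no test. The ratio of Fdft1 to Sqle TPM, consecutive enzymes of the sterol branch, was 0.228 ± 0.051 in the Stat3 knockout, 0.437 ± 0.0277 in the Dynll1 knockout and 0.465 ± 0.137 in MII DIOLs. It was 0.900 ± 0.0976 in wild type of day 11, 1.46 ± 0.0289 in wild type of day 13 and 6.74 ± 0.479 in DIOLs of day 25. In GV oocytes it was 12.5 ± 0.552 (incompetent) and 14.8 ± 1.50 (competent, SD, n = 3).

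**Figure D5:**
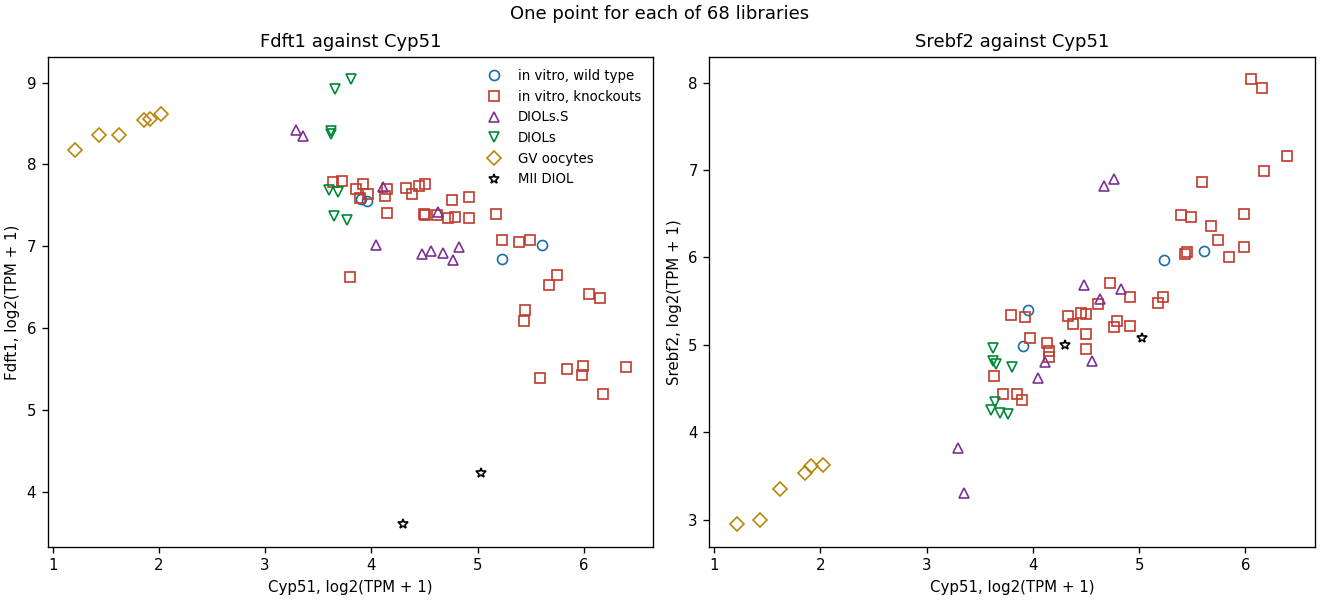
Fdft1 (left) and Srebf2 (right) against Cyp51, all on log2(TPM + 1), with a point for each of 68 libraries. Srebf2 lies higher where Cyp51 is higher (r = 0.90 over 33 group means), and Fdft1 lies lower (r = -0.71), with the MII DIOLs apart at 11.2 and 17.8 TPM.

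The mean of the 8 standardised profiles was highest in the Dynll1 knockout and lowest in incompetent GV oocytes. Among 9131 genes with a group mean of at least 10 TPM in some group, those most like it over the 33 groups were Gnb1, Fgfr1op and Tmem170b (r = 0.85 each), and Hnrnpab and Sohlh2 (r = 0.84 each). Lss (0.88), Srebf2 (0.87) and Cyp51 (0.86) were the members closest to their own mean, followed by Sqle (0.71), Fdps (0.49), Hmgcs1 (0.42) and Idi1 (0.23). Fdft1, at -0.51, ran against it. Each member is part of this mean, which raises its r, so these values cannot be compared with those of the other genes.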

How the data were processed

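PolyA RNA of 71 samples was sequenced, and 68 libraries whose labels match a column were used; 3 samples of primordial follicle oocytes matched none. The authors deposited TPM per gene and library, made with STAR 2.6.0 and featureCounts 1.6.0 on mm10, per the submitters' processing notes. Of 148 columns 80 belong to no sample here and were not used. Of 15163 rows 1 incomplete and 22 with date-like names were dropped.

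Moderated linear models (limma 3.58.1, trend and robust, R 4.3.3) were fitted to log2(TPM + 1), a scale that understates changes of low genes, over genes at 1 TPM or more in at least 2 libraries. Fits held 42 in vitro libraries (21 residual degrees of freedom, 12306 genes), 26 DIOL, MII and GV libraries (14, 11603 genes) or, for wild type against GV, all 68 (35, 12689 genes). P-values were adjusted by Benjamini-Hochberg over all genes of each of 34 comparisons, and a gene was called at adjusted p under 0.05 and absolute log2 change of at least 1. The fit was also run on simulated data with independent noise for each gene and few changed genes. That setting cannot show how the fit does where many genes shift, as in several comparisons here. Members and lists were chosen with earlier results of these data known, and named genes are the 8 members, up to 3 called genes per pathway list and comparison with the largest change, Insig1 and Srebf1, targeted genes, and the 5 most similar profiles, apart from some genes that are not reported here. Akap9 and Ctsb were added for their overlap after values were seen. Alternatives were a pseudocount of 0.1, no filter, 1 joint fit of all libraries, rescaling of TPM by the median of ratios, a fit without the Sohlh1 knockout, the replicate number as a block, and leaving out each library.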

Additional observations from a re-analysis of the deposited data

How the results depend on the processing

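Of 48 member calls over the 34 comparisons, 34 stood under every alternative run, 14 were lost under at least 1, and none of 272 member changes reversed a call; of 227 calls of pathway genes 148 stood under every alternative and none reversed. Rescaling by the median of ratios moved the number of members called from 1 to 2 in wild type between the days, from 1 to 0 in the Ybx3 knockout, from 2 to 1 in the Nobox knockout, where Cyp51 and Srebf2 went and Fdft1 came in (-1.08), from 4 to 2 in DIOLs.S from day 7 to 14, from 0 to 1 in DIOLs from day 5 to 10, from 5 to 4 in the Dynll1 knockout, from 3 to 2 in the Stat3 knockout, from 2 to 3 in the Sub1-labelled libraries and from 6 to 8 in MII DIOLs against competent GV oocytes, and the cause was not tested. Over all genes it moved the split of higher and lower calls from 4642 and 1284 to 2999 and 2149 in the Dynll1 knockout, from 677 and 2030 to 1159 and 1361 in wild type between the days, and from 2298 and 4391 to 3577 and 3281 in MII DIOLs against DIOLs of day 25. Leaving out each library in turn gave 1 to 2 members for wild type between the days, 2 to 3 for the Sub1-labelled libraries, 2 to 4 for Stat3, 1 to 2 for Figla, 1 to 3 for Tbpl2, 0 to 1 for Ybx3, 4 to 5 for Dynll1, 0 to 1 for each DIOLs.S step from day 3 to 7, 2 to 5 from day 7 to 14, and 5 to 6 for MII DIOLs against DIOLs of day 25. The replicate numbers did not pair the libraries, with correlations of their deviations between -0.166 and 0.056, and the replicate block changed the number of members called in 0 of 34 comparisons, for example 5 in the Dynll1 knockout with and without it. Depth is unknown, so values of Idi1 near 0 carry an error that cannot be given.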
